A study of Rattus norvegicus with 2 samples.

Results

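Mdm2, Cdkn1a, Ccng1, Gadd45a, Gadd45b, Gadd45g, Btg2, Plk2 and Plk3 were described here, a group of p53 target genes and growth-arrest genes chosen by symbol. All 9 were found once each among the 32662 genes with a deposited expression value. All 9 also reached an FPKM of at least 1 in at least 1 library, as did 13599 genes in all. These 13599 genes serve as the background for expression, and motif shares are taken over promoter windows instead. FPKM is a read count scaled to transcript length and library reads, so levels of different genes can be compared on it. The data are 2 rRNA-depleted RNA-seq libraries of whole retina from Long-Evans rats of 2 months, female by the study's methods. CTRL came from a retina after a sham procedure. IR12 came from a retina injured by ischemia-reperfusion (IR), a cut in blood supply followed by its return, and taken 12 hours after reperfusion. With 1 library per condition no difference below has a replicate check, and no p-value was computed. The injury and any other difference between the 2 retinas cannot be told apart. Whether the 2 retinas came from 1 rat or from 2 is not stated in the study's methods.

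The transcription factor p53 is held low in unstressed cells by Mdm2, a ubiquitin ligase that is itself a p53 target, and accumulates after DNA damage and other stress. Its targets include Cdkn1a, which encodes the p21 inhibitor of cyclin-dependent kinases, and genes of DNA repair and cell death. Gadd45 proteins are small stress-induced proteins that bind cell cycle and stress kinase partners, and Gadd45b, Gadd45g, Btg2, Plk2 and Plk3 are also known as early response genes that many signals other than p53 induce. Most retinal neurons no longer divide, so growth arrest genes in this tissue are read mainly as stress genes.

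Promoter windows are shown first because the genes share a name for their regulation but not their sequences. RefSeq gives a window of 250 bases before to 50 bases after the transcript start on GRCr8 for all 9 genes, and 6 motifs were searched on both strands. A p53 half-site was matched in the windows of Cdkn1a, Ccng1 and Gadd45a, 3 of the 9 genes, and in 7.20% of the 13408 windows of genes in the expression table. The cAMP response element (CRE), TGACGTCA, was matched in Btg2 and Plk2 and in 2.63% of all windows. The TATA box, TATAAA, was matched in Gadd45g alone of the 9 and in 9.75% of all windows. The AP-1 site, TGANTCA, the NF-kB site and the CArG box were matched in none of the 9 and in 5.94%, 9.32% and 1.34% of all windows. The matches shown do not overlap each other, and a match is a description of letters and not of binding. Near matches, and sites outside these windows, were not searched, so a gene without a match may hold a site elsewhere. The 4 windows below are those of Gadd45g, the gene with the largest difference, Cdkn1a, with its p53 half-site 201 bases before the start, and Btg2 and Plk2, with the CRE. Capitals mark the matched motif, and each window is written 5′ to 3′ on the strand of its gene, at chr17:13530302-13530601 (minus strand), chr20:7150682-7150981 (plus), chr13:48087641-48087940 (minus) and chr2:43702286-43702585 (plus) of GRCr8.
Gadd45g: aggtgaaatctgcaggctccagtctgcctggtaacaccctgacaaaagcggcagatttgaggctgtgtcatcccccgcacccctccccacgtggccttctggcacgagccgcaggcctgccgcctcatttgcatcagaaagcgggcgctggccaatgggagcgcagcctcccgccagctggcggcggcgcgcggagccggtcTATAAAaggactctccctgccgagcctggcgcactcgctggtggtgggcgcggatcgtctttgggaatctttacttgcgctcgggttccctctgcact
Cdkn1a: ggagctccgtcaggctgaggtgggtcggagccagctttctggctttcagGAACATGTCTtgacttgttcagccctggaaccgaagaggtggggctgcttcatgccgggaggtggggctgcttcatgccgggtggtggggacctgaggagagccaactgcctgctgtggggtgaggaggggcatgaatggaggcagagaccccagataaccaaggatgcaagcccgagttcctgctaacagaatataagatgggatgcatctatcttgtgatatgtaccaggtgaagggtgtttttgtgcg
Btg2: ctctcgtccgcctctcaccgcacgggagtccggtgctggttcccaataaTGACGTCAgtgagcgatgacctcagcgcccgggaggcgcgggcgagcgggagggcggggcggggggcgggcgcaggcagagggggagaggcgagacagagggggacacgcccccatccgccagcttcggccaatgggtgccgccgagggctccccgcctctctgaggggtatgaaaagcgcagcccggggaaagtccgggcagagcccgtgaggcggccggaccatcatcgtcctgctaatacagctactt
Plk2: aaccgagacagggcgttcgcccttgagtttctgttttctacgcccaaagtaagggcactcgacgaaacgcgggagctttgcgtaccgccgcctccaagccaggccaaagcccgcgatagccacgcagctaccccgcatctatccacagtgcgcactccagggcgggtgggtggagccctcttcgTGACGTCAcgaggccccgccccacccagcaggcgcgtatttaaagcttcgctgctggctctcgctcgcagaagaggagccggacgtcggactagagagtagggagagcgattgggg

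On the scale of FPKM + 1, Gadd45g alone of the 9 genes reached 2-fold above CTRL, and none reached 2-fold below it. Of the 13599 background genes, 6.56% lay 2-fold or more above and 6.12% 2-fold or more below. The other 8 genes lay between a log2 ratio of -0.09 for Plk2 and 0.74 for Gadd45b. The log2 ratio was above 0 for 8 of the 9 genes, compared with 51.8% of the background genes. The median log2 ratio (IR12 over CTRL) was 0.40 over the 9 genes and 0.34 without Gadd45g, compared with 0.02 over the background genes. With both columns at the same sum the median of the 9 genes was 0.91, compared with 0.59 over the background genes. It was 0.60 over the 9 genes as deposited with 0.1 added to FPKM in place of 1. Summed over the 9 genes FPKM was 367 in CTRL and 422 in IR12, and Gadd45g made up 37.1% of this difference as deposited and 11.4% of it with both columns at the same sum. As deposited, Mdm2, Ccng1 and Gadd45a were close to their level in CTRL, Cdkn1a and Btg2 were higher but under 2-fold, and Gadd45g stood far above its level in CTRL.

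**Figure D1:**
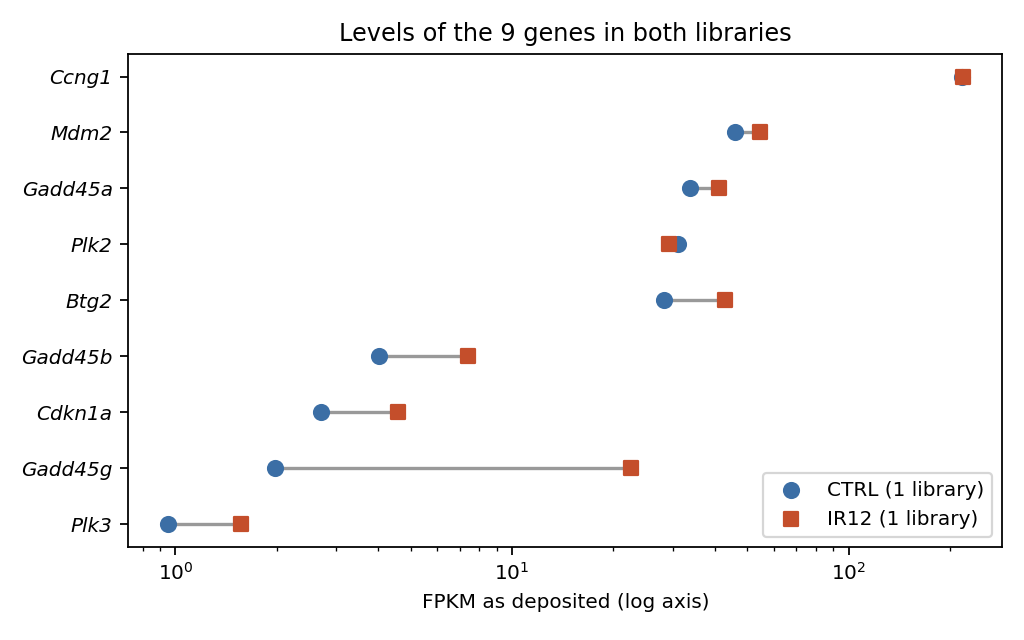
FPKM as deposited (log axis) of the 9 genes in CTRL (circles) and IR12 (squares), 1 library each, ordered by the level in CTRL. Gadd45g moves from 1.97 to 22.6, while the 2 symbols of Ccng1 lie on top of each other near 218.

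How the libraries are scaled to each other changes this count. The deposited columns sum to different totals, since small non-coding RNAs held 68.1% of the summed FPKM in CTRL and 46.4% in IR12. When both columns were brought to the same sum (TPM scale), the median background gene moved to a log2 ratio of 0.59. On that scale Cdkn1a (1.06), Btg2 (1.21), Gadd45b (1.26) and Gadd45g (3.45) passed 2-fold, 4 of 9 genes, while 20.7% of the background genes did. Background genes at least 2-fold higher numbered 892 as deposited and 2817 on the TPM scale, and those at least 2-fold lower 832 and 436. Brought to the same sum without the small RNAs, only Gadd45g passed 2-fold. Gapdh, a common reference, was at 716 FPKM in CTRL and 690.1 in IR12 as deposited, and Actb, the cytoplasmic beta-actin, had 260 and 537.

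**Figure D2:**
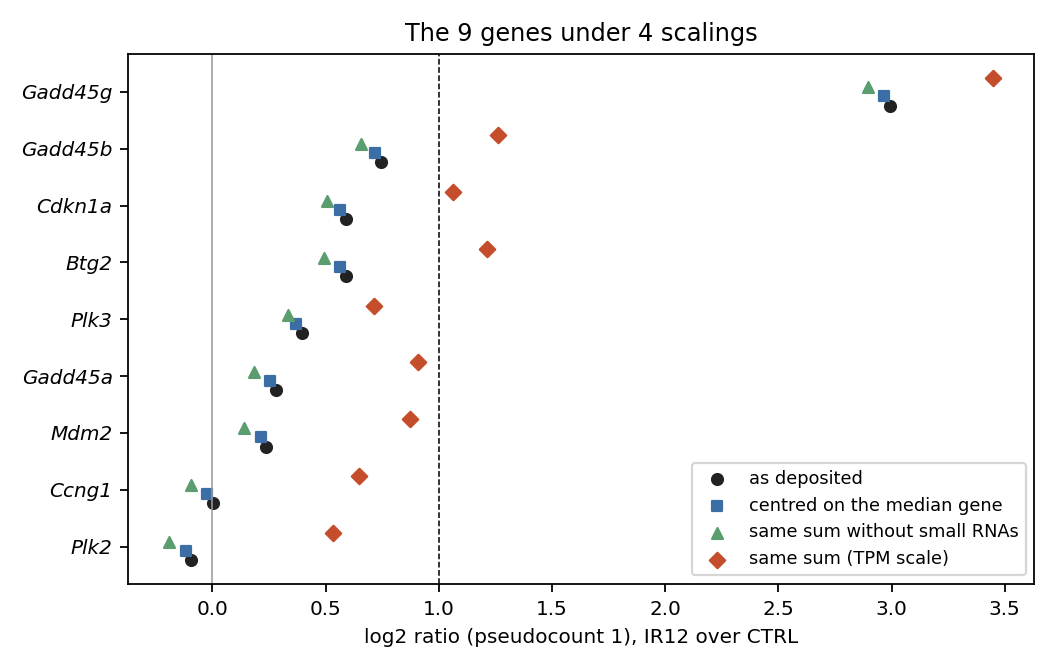
Log2 ratios of the 9 genes (pseudocount 1, IR12 over CTRL) as deposited and under 3 other scalings, with a dashed line at 2-fold. Gadd45g lies between 2.90 and 3.45 under these scalings, and only on the TPM scale do Cdkn1a, Btg2 and Gadd45b cross the line.

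Mdm2 and Ccng1 are the p53 feedback genes of the group, the first encoding the ligase that marks p53 for degradation and the second cyclin G1, which acts with protein phosphatase 2A on Mdm2. Mdm2 (ENSRNOG00000006304, rn6 chromosome 7, 60719066 to 60743328) was at 45.9 FPKM in CTRL and at 54.4 in IR12 (log2 ratio 0.24). Ccng1 (ENSRNOG00000003256, chromosome 10, 25903911 to 25910325) was at 217.8 in CTRL and at 218.3 in IR12 (log2 ratio 0.0032). Ccng1 was the highest of the 9 genes in both libraries, above 97.2% of the background genes in CTRL. Its direction is not fixed by these data, since its log2 ratio was -0.022 with centring on the median gene, -0.10 without small RNAs in the sum and 0.65 on the TPM scale. As deposited, IR12 was 1.18 times CTRL for Mdm2 and 1.002 times CTRL for Ccng1, so both levels were high in the sham retina and close in the injured one.

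Cdkn1a and Btg2 encode inhibitors of cell cycle entry, Btg2 as an antiproliferative partner of the deadenylation machinery. Cdkn1a (ENSRNOG00000000521, chromosome 20, 6351458 to 6358864) was low, at 2.71 FPKM in CTRL and 4.58 in IR12. IR12 was thus 1.69 times CTRL, and the log2 ratio was 0.59 with the pseudocount of 1 and 0.76 without it. Btg2 (ENSRNOG00000003300, chromosome 13, 50913180 to 50916982) had 28.3 in CTRL and 43.1 in IR12, 1.52 times as high, with a log2 ratio of 0.59. The log2 ratios of the pair lay at the 85.4th percentile of the background genes, under 2-fold as deposited and above it on the TPM scale. Btg2 had 10.5 times the FPKM of Cdkn1a in CTRL and 9.41 times in IR12, so the order of the pair was the same in both libraries.

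The Gadd45 family showed the widest spread. Gadd45a (ENSRNOG00000005615, chromosome 4, 97782512 to 97784842), the member best known as a direct p53 target, was at 33.7 FPKM in CTRL and at 41.1 in IR12 (log2 ratio 0.28). Gadd45b (ENSRNOG00000019822, chromosome 7, 11646269 to 11648322), known as a target of NF-kB and TGF-beta signals, was at 4.02 in CTRL and at 7.41 in IR12 (log2 ratio 0.74). Gadd45g (ENSRNOG00000013090, chromosome 17, 13391467 to 13393243), known as a cytokine-responsive member, was at 1.97 in CTRL and at 22.6 in IR12. Its IR12 level was 11.5 times its CTRL level, with a log2 ratio of 2.99, and 109 of the 13599 background genes, itself included, had a log2 ratio as high. Its log2 ratio was between 2.90 and 3.52 under every scaling, pseudocount and filter tried. In the order of the 9 genes by FPKM it stood 8th in CTRL and 6th in IR12, above Gadd45b and Cdkn1a.

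The makeup of the family differed between the libraries as well as its sum. The summed FPKM of the 3 Gadd45 genes was 39.7 in CTRL and 71.2 in IR12. Gadd45a supplied 84.9% of this sum in CTRL and 57.8% in IR12, Gadd45b 10.1% and 10.4%, and Gadd45g 4.98% and 31.8%. Gadd45a remained the most abundant of the 3 in IR12, and its share and those of the other 2 within a library do not depend on how the libraries are scaled to each other. Gadd45g made up 65.6% of the difference in the sum as deposited and 46.6% of it with both columns at the same sum.

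**Figure D3:**
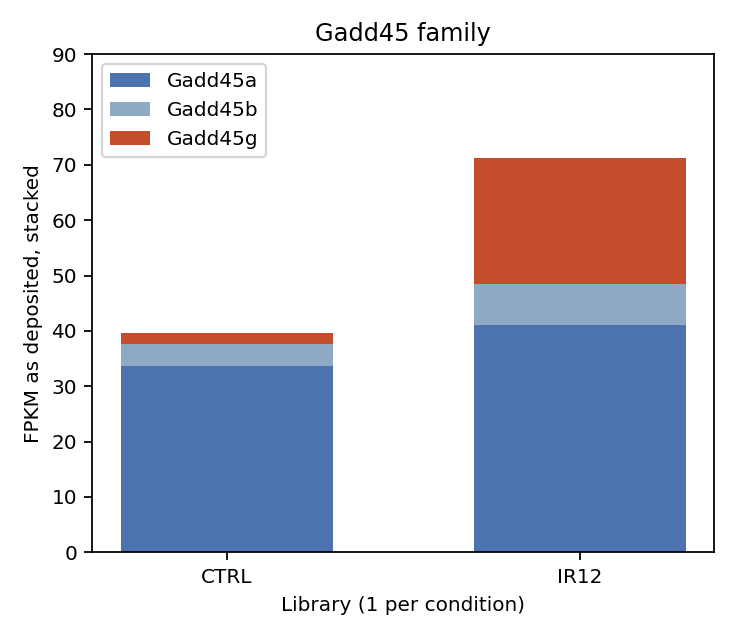
Stacked FPKM as deposited of Gadd45a, Gadd45b and Gadd45g in CTRL and IR12, 1 library each. The stack reaches 39.7 in CTRL and 71.2 in IR12, and the part of Gadd45g is 4.98% and 31.8% of it.

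Plk2 and Plk3 are polo-like kinases of the stress response and, in neurons, of synaptic adjustment. Plk2 (ENSRNOG00000011951, chromosome 2, 41911131 to 41916901) was at 31.2 FPKM in CTRL and at 29.2 in IR12 (log2 ratio -0.09), and its log2 ratio turned to 0.53 on the TPM scale. Plk3 (ENSRNOG00000018484, chromosome 5, 135997725 to 136002900) was the lowest of the 9 genes in both libraries, with 0.950 in CTRL and 1.56 in IR12 and a log2 ratio of 0.40. Only IR12 took Plk3 over the minimum of 1. Its ratio without a pseudocount was 1.65, and the number of reads behind these 2 values is not given in the sources used here. Btg2 and Plk2, which share the CRE in the windows above, differed in direction as deposited, and both were above 0 on the TPM scale.

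**Figure D4:**
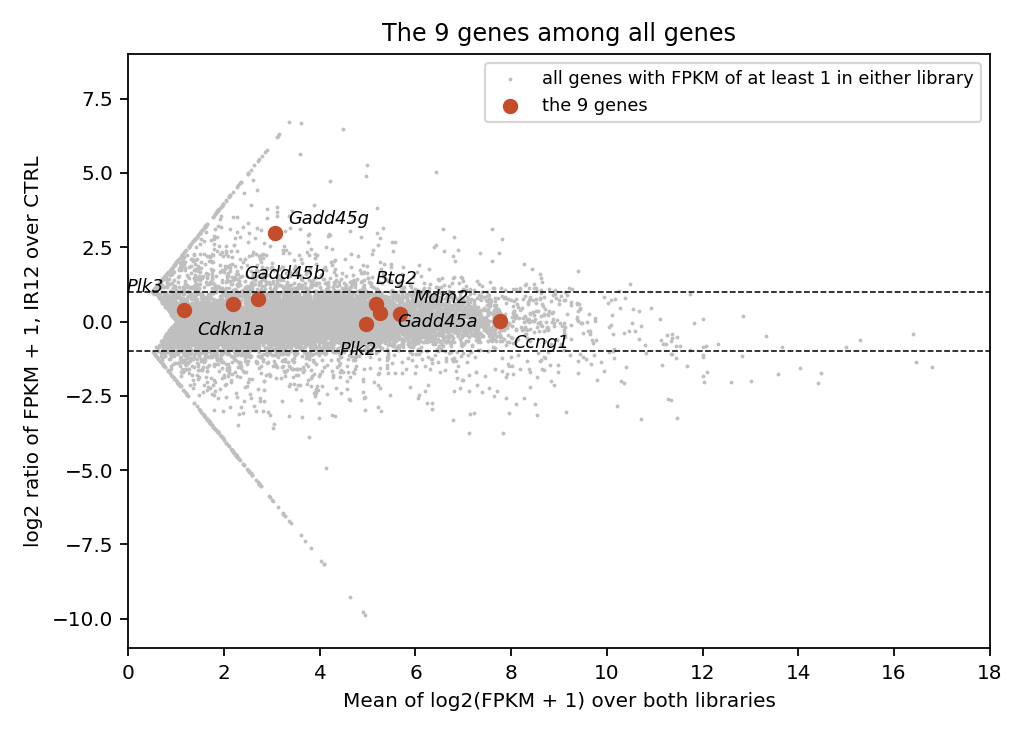
Log2 ratio of FPKM + 1 (IR12 over CTRL) against the mean of log2(FPKM + 1) for the 13599 genes with an FPKM of at least 1 in either library (grey) and the 9 genes (red), with dashed lines at 2-fold. Gadd45g stands at 2.99, and the other 8 genes lie inside the lines.

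For each of the 9 genes the nearest genes in the plane of log2(FPKM + 1) in CTRL and IR12 were listed, a likeness over 2 libraries only. Nearest to Gadd45g were Depdc7, with 2.12 in CTRL and 20.1 in IR12, and Tmbim1, with 2.37 and 27.1, at distances of 0.18 and 0.31 on the log2 scale. For the other 8 genes the nearest gene lay closer, between 0.0070 (Cacfd1, beside Gadd45b) and 0.027 (Mgat1, beside Mdm2). The nearest gene to Gadd45g thus lay farther off than the nearest gene to any of the other 8. How many genes lay within a set distance was not counted.

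The listed genes that act on the p53 protein were, like most background genes, within 2-fold between the libraries. Of 11 listed regulators and relatives with a value 8 reached the minimum FPKM of 1. None of the 8 passed 2-fold in either direction as deposited or on the TPM scale. The background shares were 6.56% higher and 6.12% lower as deposited. On the TPM scale 20.7% of the background genes were higher and 436 of the 13599 lower. The 8 log2 ratios had a median of -0.11 as deposited and of 0.52 on the TPM scale. Mdm4, the Mdm2 relative that inhibits p53, had 84.4 FPKM in CTRL and 74.9 in IR12. The phosphatase gene Ppm1d, another p53 feedback gene, had 34.5 and 25.3, and the damage kinase gene Atm had 31.8 and 30.5. Usp7, which encodes a deubiquitinase of Mdm2 and p53, was the most abundant, with 100 and 105. Tp73 and Cdkn2a were listed at 0 in both libraries. The 8 genes lay, as deposited, between log2 ratios of -0.54 (Hipk2, a kinase gene) and 0.12 (Atr, a damage kinase gene).

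Among 35 other p53 targets with a value, 30 of them with the minimum FPKM of 1, 7 lay 2-fold or more above CTRL and none lay 2-fold below it. The median log2 ratio of the 30 was 0.24, and over the background genes the share 2-fold higher was 6.56% and the median 0.02. These targets were listed with earlier results of these data known, so the comparison is a description only. On the TPM scale 11 of the 30 lay 2-fold or more above, where 20.7% of the background genes did. Among cell death targets those called as deposited were Aen, an exonuclease gene (4.84 in CTRL and 17.6 in IR12), Tp53i3, a quinone oxidoreductase gene (4.93 and 16.5), and Bid, a BH3-only gene (0.544 and 2.27). Bid and Epha2 and, among the targets not called, Casp1, Fas and Tnfrsf10b reached the minimum FPKM of 1 in IR12 only. Among targets of stress and repair those called as deposited were the ephrin receptor gene Epha2 (0.472 and 5.83), the TNF receptor gene Tnfrsf1a (1.71 and 8.69), Phlda1 (2.14 and 5.29) and Rps27l (60.6 and 125). Rps27l, a ribosomal protein gene with a near-identical relative, Rps27 (1013 and 1742), may share reads with it, and its log2 ratio of 1.03 and that of Phlda1 lie at the threshold. The other 28 targets were under 2-fold on the scale of FPKM + 1 as deposited. Bax, the pore-forming death gene, had 11.1 and 13.1, Sesn1 had 32.7 and 24.8, Zmat3 had 4.44 and 2.74, and Tp53inp1 had 35.3 and 33.4. Pmaip1, which encodes Noxa, had 2.05 and 4.50, and Casp1, a caspase gene, had 0.635 and 1.83, with log2 ratios of 0.85 and 0.79. Without the pseudocount these 2 were 2.19 and 2.88 times as high in IR12, and both passed 2-fold on the TPM scale. The p53 targets thus did not share 1 direction as deposited.

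**Figure D5:**
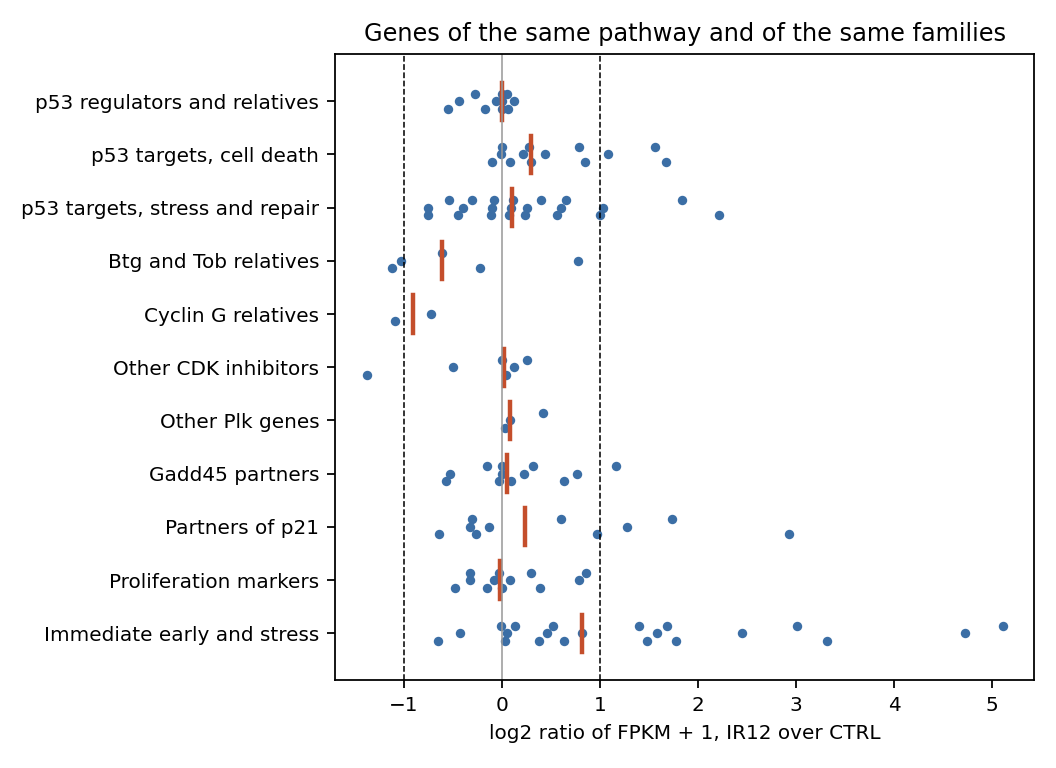
Log2 ratio of FPKM + 1 (IR12 over CTRL) of each gene of 11 lists (dots), with the median of all genes of the list that have a value (red bar) and dashed lines at 2-fold. Farthest right is Fosl1, listed at 0 in CTRL, then Atf3 at 4.72, and the relatives of Btg2 and of Ccng1 have medians of -0.61 and -0.90.

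Relatives of the 9 genes lay in part on the other side of 0. Of 5 other Btg and Tob genes, which encode antiproliferative proteins, 2 were at least 2-fold lower in IR12, beside 6.12% of the background genes, Tob1 (83.1 in CTRL and 40.4 in IR12) and Btg4 (10.7 and 4.39). Btg1 had 236 and 154, and Btg3 was higher, at 19.7 and 34.3. Ccng2, the relative of Ccng1 known as a FoxO target, had 20.2 and 9.01, and Ccni had 136 and 82.5. Of 6 other inhibitors of cyclin-dependent kinases with a value, 3 of them with the minimum FPKM of 1, 1 passed 2-fold downward, as 6.12% of the background genes did, Cdkn1c, with 7.16 and 2.14, and Cdkn1b was the most abundant, with 63.5 and 76.2. The median log2 ratio of the 5 Btg and Tob genes was -0.61 as deposited and 0.03 on the TPM scale. On that scale no gene of these 3 lists was at least 2-fold lower, and Tob1, Btg4, Ccng2 and Cdkn1c had log2 ratios of -0.39, -0.55, -0.48 and -0.85. Plk1, Plk4 and Plk5 were all at 5.24 or less in both libraries and none passed 2-fold.

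Among partners of the proteins, the stress kinase gene Mapk14, which encodes p38 alpha and lies downstream of Gadd45 proteins and the kinase Map3k4, was at 35.4 FPKM in CTRL and at 80.6 in IR12. It was the only 1 of 12 listed Gadd45 partners past 2-fold as deposited, and 3 were on the TPM scale, where the background shares are 6.56% and 20.7%. Map3k4 had 16.2 and 20.5. Of 10 genes of cyclins, kinases and PCNA that p21 binds, 3 passed 2-fold upward, the cyclin gene Ccnd1 (3.90 and 36.3, a log2 ratio of 2.93), Ccnd2 (8.62 and 31.1) and Cdk6 (2.21 and 6.79), and none was 2-fold lower, while on the TPM scale 5 passed upward, beside the same background shares. Ccnd3 was at 5.81 and 4.51. Of 12 proliferation markers 5 reached the minimum FPKM of 1, and none of the 5 passed 2-fold on the scale of FPKM + 1 as deposited. Mcm2 and Mcm3, genes of replication, were 2.12 and 2.77 times as high in IR12 without the pseudocount and passed 2-fold on the TPM scale. Mki67 (0.402 and 0.118) and Top2a (0.531 and 0.0988) stayed under 1 in both libraries, where the pseudocount leaves no room for a 2-fold call, and their FPKM in IR12 was 0.293 and 0.186 times that in CTRL.

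Since Gadd45b, Gadd45g, Btg2, Plk2 and Plk3 are also early response genes, a list of other such genes was set beside them. Of the 21 with a value 16 reached the minimum FPKM of 1. Of these, 10 lay 2-fold or more above CTRL and none 2-fold below it, beside 6.56% of the background genes above. Among the 10, Fosl1, Junb, Maff and Myc reached the minimum in IR12 only, the library where they are high. The median log2 ratio was 1.53 over the 16 and 0.82 over all 21. On the TPM scale 12 of the 16 lay 2-fold or more above, beside 20.7% of the background genes. Atf3, a stress-induced transcription factor gene, had 2.62 in CTRL and 94.5 in IR12, Junb had 0.780 and 16.7, Myc had 0.0911 and 7.79, and Fosl1 was listed at 0 in CTRL with 33.4 in IR12. Of the 16, those lower as deposited were Egr1 (9.58 and 5.76) and Dusp1 (22.6 and 16.6). Gadd45g, at a log2 ratio of 2.99, lay between Fos (1.40) and Atf3 (4.72) of these 10, and Btg2, Plk2, Plk3 and Gadd45b lay under 2-fold.

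The cell types of the samples were checked by their markers, and several lists differed between the libraries. For the counts of called genes that follow, the background shares as deposited were 6.56% higher and 6.12% lower, and on the TPM scale 20.7% higher, with 436 of the 13599 background genes lower. Both libraries were retinal by their rod genes, with Gnat1, the rod transducin gene, at 4027 in CTRL and 4237 in IR12, and 0 of 7 rod genes past 2-fold. Of 14 microglia and leukocyte genes 11 reached the minimum FPKM of 1, and 6 of them lay 2-fold or more above CTRL. Of these 6, Lyz2 alone reached the minimum in CTRL. S100a8, S100a9, Itgam, Ptprc and Cd14 reached it in IR12 only, the library where they are high. The summed FPKM of the 14 was 23.4 in CTRL and 139 in IR12. Lyz2 was the most abundant (9.73 and 76.9), S100a9 had 0.199 and 23.0, S100a8 (12.8 in IR12) and Ccr2 were listed at 0 in CTRL, and Mpo was at 0 in both. The microglia genes P2ry12 (1.67 and 0.650) and Cx3cr1 (1.16 and 0.676) were lower in IR12, and Csf1r had 3.61 and 3.71. Of 8 Müller glia genes 6 were at least 2-fold lower in IR12, among them Glul (754 and 126). Of the other 2, 1 was at least 2-fold higher, Clu (223 and 673), and Vim was at 121 and 221. The sum of the 8 was 1391 and 1097. All 7 lens genes were at least 2-fold lower in IR12, with a sum of 2967 in CTRL and 355 in IR12. Cryba1 was the most abundant of them (1614 and 196). The lens is not part of the retina, and how much lens tissue each sample held was not tested. The summed FPKM of the other lists was 415 and 279 for cones, 556 and 397 for bipolar cells, 288 and 184 for amacrine and horizontal cells, 331 and 269 for ganglion cells, 158 and 94.8 for endothelium and pericytes, 15.0 and 8.64 for pigment epithelium, and 20.8 and 35.3 for red blood cells. The direction of several neuronal lists depends on the scaling. Among genes with the minimum FPKM of 1, the median log2 ratio as deposited and on the TPM scale was -0.55 and 0.09 for cones, -0.54 and 0.09 for bipolar cells, -0.16 and 0.46 for ganglion cells, and -0.78 and -0.14 for amacrine and horizontal cells. It likewise turned from -0.41 to 0.11 for endothelium and pericytes, from -0.12 to 0.29 for pigment epithelium and from -0.03 to 0.61 for rods. The medians of the lens list (-2.68 and -2.09) and the Müller list (-1.73 and -1.09) were below 0 on both scales. On the TPM scale 7 of 7 lens genes were at least 2-fold lower, and of the 8 Müller genes 4 were at least 2-fold lower and 2, Clu and Vim, at least 2-fold higher. The part of these cell types in the level of Gadd45g or of the other 8 genes was not tested. In these samples fewer cells of a type, less RNA per cell and a different amount of carried-over tissue cannot be told apart.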

How the data were processed

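RNA-seq libraries of 1 sham retina (CTRL) and 1 retina taken 12 hours after reperfusion (IR12) were compared, assigned by their labels. The authors deposited gene-level FPKM, 1 column per library. The submitters' processing notes name STAR 2.5.2b, Cuffdiff 2.2.0 and rn6, without saying which step each served, and the study shortened reads to their first 100 bp. The counting of reads by strand is not given in the sources used here, and 2 descriptions name different stranded kits, both with rRNA removal. Listed locus starts were raised by 1, since this gave the RefSeq hairpin length for 190 of 346 microRNA genes and a length off by 1 for none.

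Log2 ratios are log2 of (FPKM + 1) in IR12 over CTRL, which makes the ratios of low genes smaller than those of their FPKM, with an FPKM of at least 1 in either library as the filter and 2-fold as the call. FPKM gives no read counts, so no counting interval was computed. At 8 of 11 locus lengths the lowest repeated FPKM in CTRL was 1.71 times that in IR12, and at the other 3 the ratio was 2, 0.333 and 0.25 times this one. What 1 read is worth was not tested. Of the 32662 genes 13562 were at 0 in both libraries, including the 37 mitochondrial genes that every cell uses, so 0 means only that a gene is listed at 0. Members, gene lists, motifs and the rule for named genes (the 9 genes, genes of the lists, 2 nearest genes per member, Gapdh and Actb) were chosen with earlier results of these data known. Rps27, Mcm4, Mcm6 and Mcm7 were added after their values were seen. Genes of 2 lists are given without 1 gene each, which is not reported here. Chek1, Cop1, Bbc3, Cdkn2d, Ier2, Pecam1 and 3 globin symbols had no row of that symbol and were not analysed here. Promoter windows came from RefSeq (GRCr8), matched by symbol. The calculation was tested on simulated data. Python 3.11.15, numpy 2.4.6, pandas 2.3.3 and matplotlib 3.10.9 were used.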

Additional observations from a re-analysis of the deposited data

How the results depend on the processing

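The choices varied were the pseudocount (0.1), the scaling (centring on the median gene, or the same column sum with and without small RNAs), the filter (a minimum FPKM of 5, or none), the call (1.5-fold) and, added after the data were seen, no pseudocount. Of 124 alternative values for 17 results, 106 kept their direction and their side of the threshold, or stayed within 1.5 times for counts. On the TPM scale 4 of the 9 genes were at least 2-fold higher, 2817 and 436 background genes were higher and lower, 11 other p53 targets were higher, and Plk2 turned to 0.53. With a 1.5-fold call the same counts were 4, 2007 and 1861, and 11, and 2 other p53 targets were lower. Ccng1 turned to -0.022 with centring and to -0.10 with the sum without small RNAs. These settings rescaled the columns, shifted all log2 ratios or lowered the threshold. On the TPM scale the pseudocount of 1 was added after the rescaling, so the change differed by gene. Ccng1 went from 0.0032 to 0.65 and Plk3 from 0.40 to 0.71. With a minimum FPKM of 5, Cdkn1a and Plk3 were left out. No library could be left out, since each condition has 1. No paired analysis was possible because the labels carry no replicate numbers and each condition has 1 library. The reads behind the low values, of Plk3, Cdkn1a and Gadd45g in CTRL, are not known.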

Other observations

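Kinase genes through which Gadd45 proteins are known to act are given next. Map2k4, an activator of the JNK kinases, was at 45.3 FPKM in CTRL and at 78.0 in IR12, a log2 ratio of 0.77. The JNK genes Mapk8 and Mapk9 were at 54.1 and 54.4, and at 65.7 and 77.2, in this order of libraries, while Mapk10, the neuronal JNK gene, was at 21.7 and 14.3. Map2k6, an activator of p38 kinases, was at 11.8 and 7.87, and Map2k3 was listed at 0 in both. None of these genes passed 2-fold as deposited, where 6.56% of the background genes were higher and 6.12% lower. On the TPM scale Map2k4 passed 2-fold (log2 ratio 1.40), beside 20.7% of the background genes higher. Mapk10 (0.04) and Map2k6 (0.06) were no longer lower on that scale.

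Of the 6 genes of the replicative helicase, Mcm2 to Mcm7, Mcm4 alone passed 2-fold on the scale of FPKM + 1 as deposited. It had 15.9 in CTRL and 53.3 in IR12 (log2 ratio 1.68), and 6.56% of the background genes were 2-fold higher. Mcm2 was at 2.61 and 5.54, Mcm3 at 0.690 and 1.91, Mcm5 at 0.228 and 0.506, Mcm6 at 3.39 and 3.81 and Mcm7 at 9.27 and 15.7. Without the pseudocount Mcm2, Mcm3 and Mcm5 were 2.12, 2.77 and 2.22 times as high in IR12. On the TPM scale Mcm2 (1.33) and Mcm3 (1.07) passed 2-fold and Mcm5 (0.43) did not, beside 20.7% of the background genes higher. Mcm4, Mcm6 and Mcm7, added after their values were seen, are not given on that scale. Pcna, a clamp of replication and repair that p21 binds, was at 68.3 and 104.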
